A study of Mus musculus with 12 samples.

Results

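Nrp2, Mn1, Snhg11, Mme and Lepr are 5 of the 13097 genes with read counts in mouse liver, and they were chosen by their low measured levels in mice labelled as Sirt6 knockouts. All 5 were found in the count table. The liver of 12 female C57BL/6 mice aged 3 months was sequenced, with 3 individual mice in each of 4 groups. Wild type and labelled liver-specific Sirt6 knockout mice received, for 10 days, either an isocaloric control diet (pair-fed) or a Lieber-DeCarli diet with 5% ethanol. Each mouse then had 1 binge dose, read here as maltose dextrin for pair-fed and ethanol at 5 g/kg for ethanol-fed mice, so the ethanol effect covers both diet and binge. The sources used here name neither the Cre driver nor the deleted exons, and do not say whether wild type mice carried floxed alleles.

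Nrp2 encodes neuropilin 2, a cell surface co-receptor for class 3 semaphorins and for lymphangiogenic vascular endothelial growth factors. Lepr encodes the leptin receptor, a class I cytokine receptor that signals through the kinase JAK2 and the transcription factor STAT3. Liver can also release a soluble form of it that binds leptin in plasma. Mme encodes neprilysin, a membrane-bound zinc peptidase that cleaves small signalling peptides such as enkephalins and natriuretic peptides. Mn1 encodes a transcriptional co-regulator that acts with retinoid receptors. Snhg11 is a host gene of small nucleolar RNAs, which are cut from its introns.

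The genotype differences of these 5 genes are what selected them, so they are given below as a description and carry no test. Levels are CPM, that is, counts scaled to library size with TMM factors. Log2 differences are estimates ± SE from 1 edgeR quasi-likelihood fit over the 12 libraries, n = 3 mice per group. The 5 genes were tested only for ethanol feeding averaged over both genotype labels. Its weights are orthogonal to those of the 2 genotype contrasts, which gives independent estimates only where groups are about equally precise. Snhg11 falls short of this, with ethanol SEs of 0.30 in wild type and 0.45 in labelled knockout mice. Its averaged test is therefore not independent of how it was chosen. A gene was called at a Benjamini-Hochberg adjusted p under 0.05 over all 13097 genes.

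Total counts ranged from 17305141 to 18279809 per library. Sirt6 itself had 49 to 68 counts in wild type pair-fed libraries and 46 to 52 in pair-fed libraries labelled knockout, and 54 to 67 and 53 to 62 in the respective ethanol-fed libraries. Its log2 difference between labels was -0.23 ± 0.21 under pair-feeding (adjusted p = 0.914 in edgeR) and 0.01 ± 0.21 under ethanol (adjusted p = 0.985), so no lower transcript level was detected under the knockout label. For this reason the mice are termed labelled knockout, and all genotype directions depend on the labels being right. All 8 hepatocyte markers were in the table. In these whole-tissue libraries, fewer cells of a type and less RNA per cell cannot be told apart.

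The 5 genes lie on different chromosomes, all on the plus strand, in mm10 coordinates. Nrp2 (NM_010939, chr1:62703317-62818692) was counted over 18 exonic blocks of 8122 bases. Lepr (NM_146146, chr4:101717407-101815354) was counted over 20 blocks of 6634 bases, and Mme (NM_001289462, chr3:63295435-63383713) over 24 blocks of 6387 bases. Mn1 (NM_001081235, chr5:111418166-111457025) has only 2 exonic blocks, of 6128 bases in all. Snhg11 (NM_175692, chr2:158375638-158386145) has 5 blocks of 5864 bases, and GENCODE M21 places 2 small nucleolar RNA genes on its strand, neither of which overlaps an exonic block. GENCODE also lists Gm29083 as antisense within Nrp2, but no exonic base of Nrp2 lies in its span. Counts are per gene, so the membrane-bound and soluble isoforms of Lepr are summed.

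RefSeq starts with promoter sequence (build GRCm38.p6) were found for 4 of the 5 genes: Nrp2, Lepr, Mme and Snhg11. The 250 bases before the first RefSeq start of each are shown because these genes were low in the same libraries. For Snhg11 the stretch stops at the first counted exon. Capitals mark matches, on either strand, to the GC box (GGGCGG), the CCAAT box (CCAAT) or the STAT site (TTCNNNGAA).
Nrp2, chr1:62703067-62703316: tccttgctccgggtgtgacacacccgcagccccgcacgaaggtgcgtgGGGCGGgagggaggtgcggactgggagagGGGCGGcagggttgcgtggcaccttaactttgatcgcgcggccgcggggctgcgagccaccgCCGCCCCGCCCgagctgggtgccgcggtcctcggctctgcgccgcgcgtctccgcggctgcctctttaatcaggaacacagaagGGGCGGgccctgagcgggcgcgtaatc
Lepr, chr4:101717157-101717406: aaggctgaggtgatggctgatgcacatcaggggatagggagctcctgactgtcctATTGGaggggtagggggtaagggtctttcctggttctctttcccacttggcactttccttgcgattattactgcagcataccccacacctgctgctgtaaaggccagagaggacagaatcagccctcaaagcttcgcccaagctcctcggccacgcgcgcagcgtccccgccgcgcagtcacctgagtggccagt
Mme, chr3:63294961-63295210: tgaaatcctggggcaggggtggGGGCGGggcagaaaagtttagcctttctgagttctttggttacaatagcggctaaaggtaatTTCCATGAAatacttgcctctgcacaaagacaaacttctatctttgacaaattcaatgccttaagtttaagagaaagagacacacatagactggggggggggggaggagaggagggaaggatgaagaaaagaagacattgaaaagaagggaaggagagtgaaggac
Snhg11, chr2:158375463-158375637: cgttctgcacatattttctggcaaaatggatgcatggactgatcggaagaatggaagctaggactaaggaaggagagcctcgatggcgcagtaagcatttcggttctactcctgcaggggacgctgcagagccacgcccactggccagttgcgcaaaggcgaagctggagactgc

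None of 8 motifs searched on both strands was present in all 4 windows. Nrp2 holds 5 GC boxes, of which 2 overlap by 1 base, and is 72.4% G or C. Lepr holds 1 CCAAT box, at -195 to -191 from the RefSeq start. Mme holds 1 GC box and 1 STAT site, and is 45.6% G or C. The 250 bases before the Snhg11 start hold none of them. Searches for the TATA box (TATAAA), the E-box (CACGTG), the AP-1 site (TGANTCA), the retinoid receptor site (AGGTCA) and the hypoxia core (ACGTG, part of the E-box) found no match in these 4 windows. Among 32851 RefSeq windows of 250 bases, 32.7% hold a GC box, 33.8% a CCAAT box and 7.02% a STAT site, and the other motifs are in 12.4%, 6.02%, 6.75%, 14% and 16.6% in the order named. RefSeq gives further starts for Mme and Lepr, whose windows overlap counted exons and are not printed. Motif content depends on the start used. The further Lepr window holds a GC box, and both further Mme windows hold GC and CCAAT boxes, at 73.2% and 73.6% G or C. The Mme window at 73.6% also holds an AP-1 site. GENCODE M21 starts the Mme gene further upstream, at chr3:63241537, and that start was not searched.

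Every one of the 5 genes was lower in all 3 labelled knockout mice than in all 3 wild type mice, under both feeding conditions. Such separation was met by 12.6% of all genes in pair-fed mice, by 6.21% in ethanol-fed mice and by 1.76% in both. Since low levels under the label chose the genes, nothing is read from that count. What differed among the 5 was how deep the difference was, how it moved with feeding, and how steady it was between mice.

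Nrp2 stood at 22.5, 35.7 and 41.3 CPM in the 3 wild type pair-fed mice and at 8.95, 10.1 and 13.1 CPM in the 3 labelled knockout pair-fed mice. In ethanol-fed mice it stood at 69.9, 54.4 and 65.2 CPM in wild type and at 13.1, 13.6 and 10.5 CPM in labelled knockout. The order of levels was thus wild type ethanol-fed, wild type pair-fed, and then both labelled knockout groups, whose values overlapped each other. The log2 difference between labels was -1.63 ± 0.22 in pair-fed mice, where 32.2% of the wild type level remained. In ethanol-fed mice it was -2.35 ± 0.22, with 19.6% remaining.

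Lepr stood at 51.9, 69.5 and 53 CPM in wild type and at 21.3, 45.7 and 24.3 CPM in labelled knockout pair-fed mice. In ethanol-fed mice the values were 122, 216 and 133 CPM in wild type and 62.3, 32.9 and 26.8 CPM in labelled knockout. The highest labelled knockout ethanol-fed mouse reached into the range of the wild type pair-fed mice, and the 2 labelled knockout groups overlapped. The log2 difference between labels was -0.93 ± 0.36 in pair-fed mice (52.4% remaining), the smallest of the 5 in that feeding condition. It was -1.94 ± 0.37 in ethanol-fed mice (26.0% remaining).

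Mme had the highest wild type pair-fed level of the 5 genes, at 82.1, 90.7 and 134 CPM. Labelled knockout pair-fed mice had 21.7, 19.7 and 47.5 CPM, so that mouse 3 stood well above the other two. In ethanol-fed mice it was 47.8, 55.4 and 48.8 CPM in wild type and 11.2, 13.8 and 10.9 CPM in labelled knockout. The 4 groups did not overlap, although the highest labelled knockout pair-fed value (47.5) was next to the lowest wild type ethanol-fed value (47.8). The log2 difference between labels was -1.79 ± 0.30 in pair-fed mice (29.0% remaining) and -2.08 ± 0.31 in ethanol-fed mice (23.7% remaining). Without labelled knockout pair-fed mouse 3 the pair-fed difference was -2.30.

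Mn1 was the steadiest of the 5 within labelled knockout pair-fed mice, with a coefficient of variation of 6.95%. Its values were 18, 15.8 and 21.7 CPM in wild type and 7.27, 6.52 and 6.41 CPM in labelled knockout pair-fed mice. Under ethanol, wild type mice had 15.7, 22.2 and 18.9 CPM and labelled knockout mice 9.91, 12.6 and 11.7 CPM. The wild type groups overlapped, whereas the labelled knockout groups did not, the ethanol-fed being higher. The log2 difference between labels was -1.46 ± 0.17 in pair-fed mice (36.4% remaining) and -0.73 ± 0.17 in ethanol-fed mice (60.2% remaining).

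Snhg11 was the rarest transcript, and the one with the deepest pair-fed difference. Wild type pair-fed mice had 86, 53 and 38 raw counts, and labelled knockout pair-fed mice only 3, 5 and 4. Under ethanol, wild type mice had 42, 53 and 35 counts and labelled knockout mice 17, 19 and 14. The wild type groups overlapped, and the labelled knockout ethanol-fed mice lay above the labelled knockout pair-fed mice without reaching any wild type mouse. The log2 difference between labels was -3.85 ± 0.40 in pair-fed mice (6.91% remaining), which ranked 2 from the lowest of all 13097 genes. It was -1.32 ± 0.33 in ethanol-fed mice (40.1% remaining, rank 127). The pair-fed value rests on a summed count of 12 in the labelled knockout group, with an exact Poisson interval of 6.2 to 21 (95%, counting error only), against 177 in wild type.

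**Figure D1:**
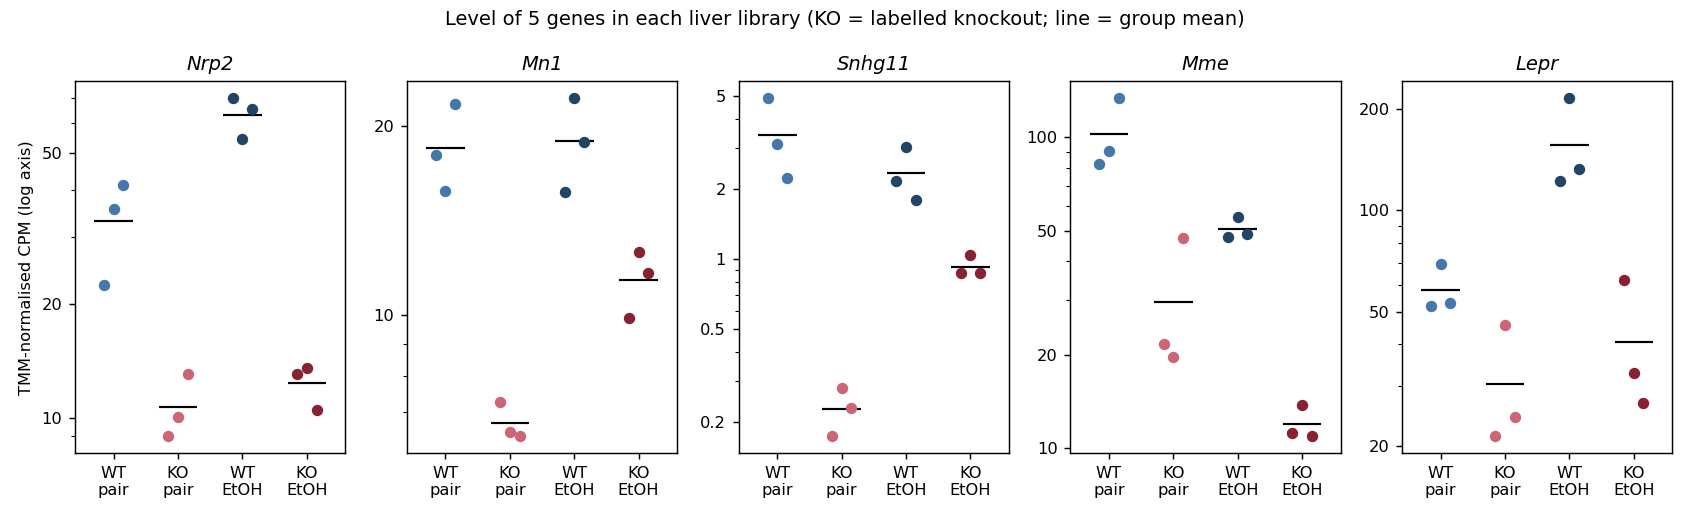
TMM-normalised CPM (log axis, scaled separately for each gene) of the 5 genes in the 12 libraries, by genotype label and feeding; points are mice and lines are group means. In each panel the 3 labelled knockout mice lie below the 3 wild type mice of the same feeding condition, and Snhg11 has the widest pair-fed gap.

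On the scale of CPM per kilobase of counted exon, which allows genes to be compared, Mme led in wild type pair-fed mice at 16 ± 4.32 (SD, n = 3). Lepr followed at 8.77 ± 1.48, then Nrp2 at 4.08 ± 1.19 and Mn1 at 3.02 ± 0.492, and Snhg11 was lowest at 0.581 ± 0.233. In wild type ethanol-fed mice Lepr came first, at 23.6 ± 7.77 CPM per kilobase, and Mme and Nrp2 were next to each other at 7.93 ± 0.639 and 7.78 ± 0.980. In labelled knockout ethanol-fed mice Lepr was at 6.13 ± 2.86, and Mme, Mn1 and Nrp2 lay close together at 1.88 ± 0.246, 1.86 ± 0.222 and 1.53 ± 0.205.

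The feeding condition with the larger genotype difference was not the same for all 5 genes. For Nrp2 and Lepr it was larger in ethanol-fed than in pair-fed mice, with a change of the log2 difference of -0.71 ± 0.30 and -1.01 ± 0.51, and the 95% interval of Lepr (-2.18 to 0.16) included 0. For Mn1 and Snhg11 it was smaller in ethanol-fed mice, with changes of 0.72 ± 0.24 and 2.54 ± 0.54. For Mme the change was -0.29 ± 0.41, less than its SE. These changes use the libraries that chose the genes, so they are given without a test, and this ordering was made after the values were seen.

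**Figure D2:**
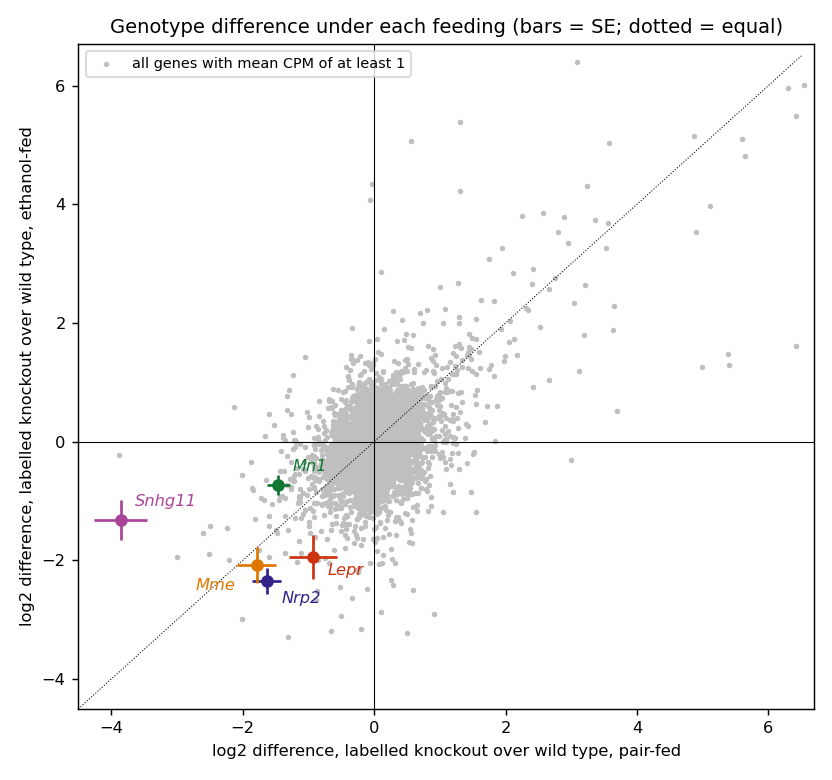
Log2 difference of labelled knockout over wild type in pair-fed (x axis) and ethanol-fed mice (y axis), for the 5 genes with SE bars and for all genes averaging 1 CPM or more (grey). Mn1 and Snhg11 lie above the dotted line of equal differences, while Nrp2, Lepr and Mme lie below it.

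Averaged over both labels, ethanol feeding raised Nrp2, Lepr, Mn1 and Snhg11 and lowered Mme. Lepr rose by 0.93 ± 0.25 on the log2 scale (1.90-fold, adjusted p = 0.0114 in edgeR's quasi-likelihood test) and Nrp2 by 0.57 ± 0.15 (1.49-fold, adjusted p = 0.00748). Mn1 rose by 0.39 ± 0.12 (adjusted p = 0.0162) and Snhg11 by 0.72 ± 0.27 (adjusted p = 0.0439). The Snhg11 test is not independent of how that gene was chosen. Mme had a log2 difference of -1.16 ± 0.21, with 44.8% of the pair-fed level remaining (adjusted p = 0.000819). All 5 of 5 were thus called, against 47% of all genes in this contrast (25.6% higher and 21.4% lower), so a call here is common. The call of Snhg11 was lost in 10 of the 12 fits that left out 1 library, with adjusted p up to 0.106 (it held only without wild type pair-fed mouse 1 or wild type ethanol-fed mouse 3), and also with limma-voom (adjusted p = 0.0747) and DESeq2 (adjusted p = 0.066). The call of Mn1 was lost without wild type ethanol-fed mouse 2 (adjusted p = 0.0552).

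Markers of several cell types also moved with ethanol feeding averaged over labels. Of the 8 hepatocyte markers, 4 fell, 2 rose (Cps1 by 0.62 ± 0.14 and Tat by 0.87 ± 0.27) and 2 were not called, and their sum was 152000 to 170000 CPM with pair-feeding and 79300 to 145000 CPM with ethanol. Of the 8 Kupffer cell markers 6 fell (median -0.77), and their median was -0.26 within wild type and -1.28 within labelled knockout mice. That difference was not tested for the list as a whole. Gene by gene, edgeR called a change of the ethanol effect between labels in 0 of the 8. Over all genes it called 0 higher and 1 lower. B cell markers fell in 4 of 4 (median -1.23), T and NK cell markers in 3 of 5 (median -0.72) and neuron markers in 2 of 3 (median -0.88). Only 3 of the 8 listed neuron markers were in the table, so their fall is not read as a change in neurons. Over all genes, 25.6% rose and 21.4% fell. Other lists did not fall as a whole: of 9 portal fibroblast and mesothelial markers 4 rose and 0 fell. Of 7 cholangiocyte markers 2 rose and 1 fell, and of 10 stellate cell and 10 sinusoidal endothelial markers 2 rose and 3 fell in each list. The part of these cells in the ethanol effects of the 5 genes was not tested.

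The ethanol differences within each genotype are again a description without a test. In wild type mice the log2 difference under ethanol was 1.43 ± 0.36 for Lepr and 0.93 ± 0.21 for Nrp2, and for both genes the ethanol-fed mice lay above all pair-fed mice. In labelled knockout mice the same differences were 0.42 ± 0.36 and 0.21 ± 0.22, with overlapping groups. Mn1 and Snhg11 showed the opposite arrangement: 0.03 ± 0.17 and -0.55 ± 0.30 in wild type mice, where the groups overlapped, and 0.76 ± 0.17 and 1.98 ± 0.45 in labelled knockout mice, where they did not. Mme had log2 differences of -1.01 ± 0.29 in wild type and -1.31 ± 0.30 in labelled knockout mice, and in both the ethanol-fed mice lay below all pair-fed mice. Separation upward between feeding groups was met by 24.8% of all genes in wild type and 23.5% in labelled knockout mice, and downward by 22.3% and 20.4%.

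**Figure D3:**
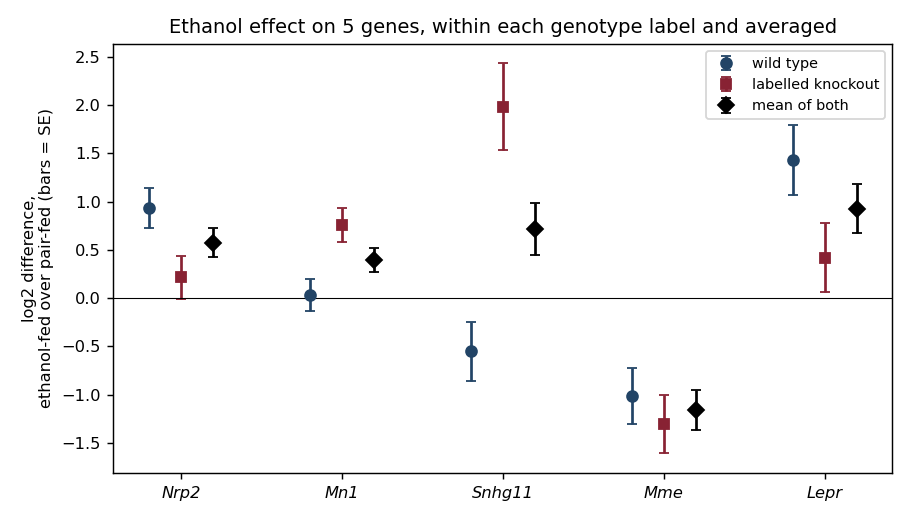
Log2 difference of ethanol-fed over pair-fed mice for the 5 genes, within wild type, within labelled knockout and averaged over both, with SE bars. Mme is below 0 in all 3, whereas the average of Snhg11 combines -0.55 in wild type with 1.98 in labelled knockout mice.

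The nearest gene in the table on each side of each of the 5 was examined for the same genotype difference. None of these 10 neighbours was called in either feeding condition by edgeR, DESeq2 or limma-voom. At an unadjusted p under 0.05, 2 of 10 passed in pair-fed and 3 of 10 in ethanol-fed mice, where 8.48% and 14.7% of all genes did. Pard3b, a cell polarity gene 61.0 kb before Nrp2, had log2 differences of -0.88 ± 0.31 (adjusted p = 0.35) and -0.85 ± 0.32 (adjusted p = 0.252) in edgeR. Leprot, which neighbours Lepr at 58.0 kb and encodes a protein that lowers leptin receptor at the cell surface, had 0.45 ± 0.16 (adjusted p = 0.308) and -0.24 ± 0.15 (adjusted p = 0.478).

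Snhg17, another small nucleolar RNA host gene 14.1 kb before Snhg11, had differences of -0.51 ± 0.27 (adjusted p = 0.673) and -0.53 ± 0.25 (adjusted p = 0.346) in edgeR. Under ethanol averaged over labels, Snhg17 rose by 1.73 ± 0.18 (adjusted p = 1.74e-05). Pde4b, a cyclic AMP phosphodiesterase gene 439.4 kb after Lepr, rose by 2.31 ± 0.34 in that contrast (adjusted p = 0.000248), with genotype differences of -0.02 ± 0.48 and -1.28 ± 0.45 (adjusted p = 0.999 and 0.227). E130311K13Rik, after Mme, rose by 1.05 ± 0.22 (adjusted p = 0.00164), opposite in sign to Mme, whereas Ino80d, after Nrp2, had -0.48 ± 0.13 (adjusted p = 0.00969).

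**Figure D4:**
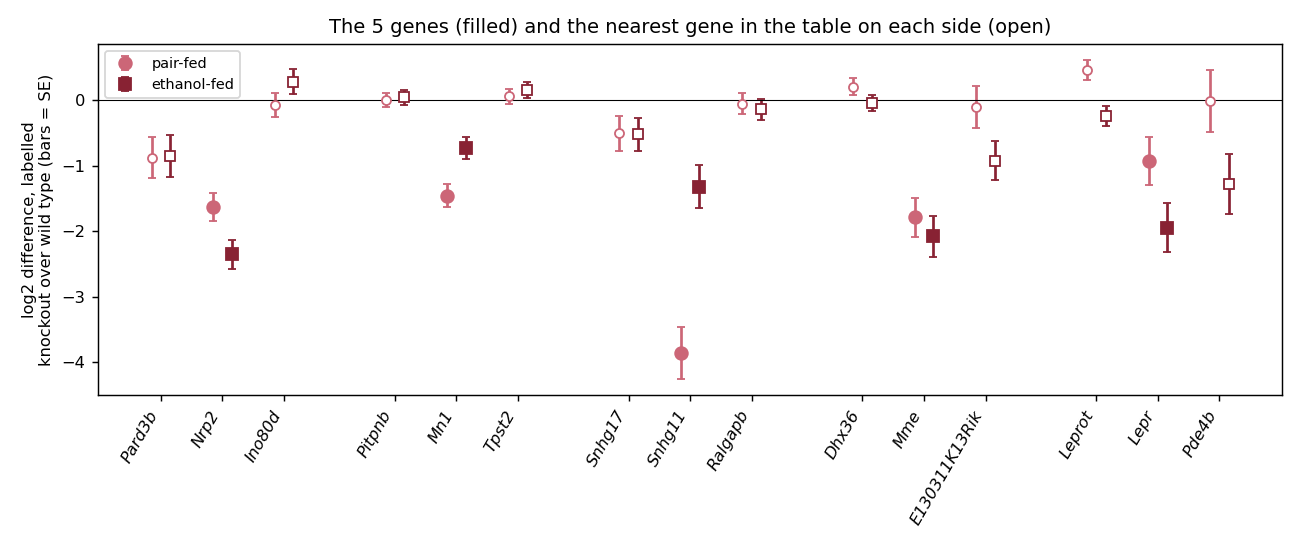
Log2 difference of labelled knockout over wild type, pair-fed (circles) and ethanol-fed (squares), with SE bars, for the 5 genes (filled) and the nearest gene in the table on each side (open). Each gene stands between its neighbours by position. Pitpnb and Tpst2 beside Mn1 and Ralgapb and Snhg17 beside Snhg11 lie nearer to 0 than the gene they flank.

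The genes that work with the 5 did not share their genotype difference at a level that could be called. Of 111 other genes on 6 lists of related pathways, edgeR called 0 under pair-feeding and 0 under ethanol, where 0.87% and 1.13% of all genes were called. At an unadjusted p under 0.05, 12 passed in pair-fed mice (10.8%, against 8.48% of all genes) and 16 in ethanol-fed mice (14.4%, against 14.7%). Limma-voom called 0 in both, and DESeq2 called 0 in pair-fed mice and 2 in ethanol-fed mice, Snhg18 among them.

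Of the semaphorin, plexin and VEGF system, 24 of 29 listed genes were in the table, with median log2 genotype differences of 0.03 under pair-feeding and -0.02 under ethanol (-0.01 in both over all genes). Under ethanol averaged over labels, 8 of the 24 rose, 3 fell and 13 were not called, where 25.6% of all genes rose and 21.4% fell, with a median of 0.23 against 0.04 over all genes. Sema3f, a semaphorin that binds neuropilin 2, rose by 1.21 ± 0.11 (adjusted p = 7.25e-06 in edgeR), and Hgf, the hepatocyte growth factor, by 0.87 ± 0.18. Nrp1, the paralogue of Nrp2, had a log2 difference of -0.80 ± 0.17 (adjusted p = 0.00205), opposite in sign to Nrp2, and the endothelial growth factor Vegfb of -0.91 ± 0.10.

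All 19 listed genes of leptin receptor signalling were in the table, with median genotype differences of -0.01 and -0.10. Under ethanol 8 rose and 3 fell, against 25.6% and 21.4% of all genes, and 8 were not called. Leprotl1, a paralogue of Leprot, rose by 1.01 ± 0.10, the JAK-directed phosphatase gene Ptpn2 by 0.73 ± 0.11 and the insulin receptor substrate Irs2 by 1.07 ± 0.23. Pias3, an inhibitor of STAT3, had a log2 difference of -0.64 ± 0.15 (adjusted p = 0.00384 in edgeR). Among the other class I cytokine receptor chains, 17 of 18 were in the table (the list also holds Il1rap, of the interleukin-1 receptor family), with median genotype differences of 0.02 and -0.14, and under ethanol 3 rose and 8 fell, against 25.6% and 21.4% of all genes, and 6 were not called (median -0.24). The growth hormone receptor Ghr had a log2 difference of -0.89 ± 0.09, Il6ra of -1.28 ± 0.17 and Lifr of -0.98 ± 0.14, opposite in sign to Lepr, while Il4ra rose by 0.66 ± 0.08.

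Of the cell surface and peptide-degrading peptidases, 17 of 21 were in the table, with median genotype differences of 0.01 and -0.10. Under ethanol 2 rose and 5 fell, against 25.6% and 21.4% of all genes, and 10 were not called (median -0.10). Anpep, an aminopeptidase that acts on small peptides at the cell surface, had a log2 difference of -0.53 ± 0.09 (adjusted p = 0.000524 in edgeR) and the oligopeptidase Nln of -0.73 ± 0.08, the direction of Mme. The endothelin-converting enzyme Ece2, of the same peptidase family as neprilysin, rose by 0.78 ± 0.12, and Thop1, a close relative of Nln, by 0.70 ± 0.12.

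Of the retinoid receptors, coactivators and retinoid enzymes listed around Mn1, 20 of 24 were in the table, with median genotype differences of -0.09 and -0.19. Under ethanol 6 rose and 4 fell, against 25.6% and 21.4% of all genes, and 10 were not called (median -0.01). The retinoic acid-degrading enzyme Cyp26b1 rose by 3.04 ± 0.21 (adjusted p = 1.89e-06 in edgeR), and the receptors Rarb and Rxrg by 0.97 ± 0.16 and 1.05 ± 0.20, while Rara had -0.54 ± 0.11. Of 20 small nucleolar RNA host genes, 14 were in the table, with median genotype differences of -0.08 and -0.15. Under ethanol 4 rose and 2 fell, against 25.6% and 21.4% of all genes, and 8 were not called (median 0.31), with Snhg14 at 0.97 ± 0.29, Snhg4 at 0.66 ± 0.21 and Snhg3 at -0.65 ± 0.16 beside Snhg17 above.

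**Figure D5:**
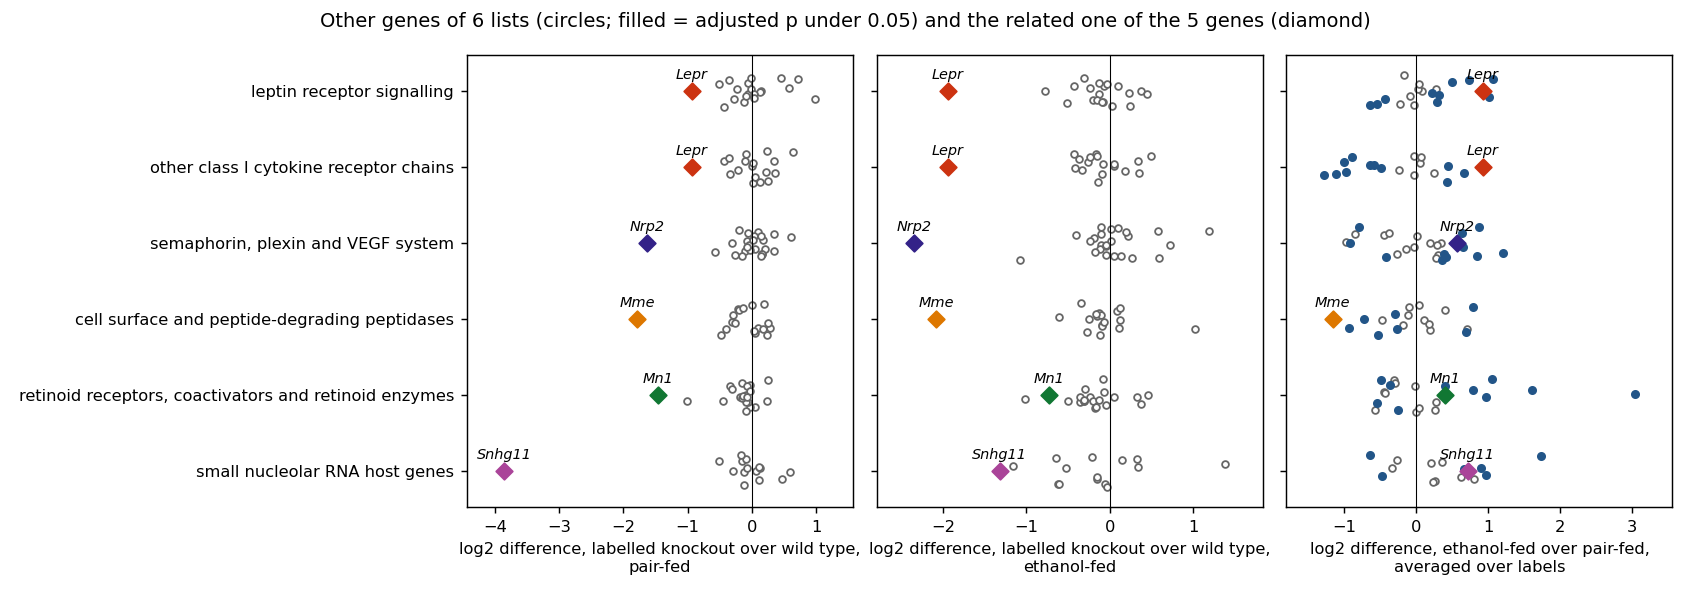
Log2 differences of the other genes of 6 related lists (circles, filled where adjusted p is under 0.05) and of the related one of the 5 genes (diamond), for labelled knockout over wild type within each feeding condition and for ethanol-fed over pair-fed mice averaged over labels. No circle is filled in the 2 genotype panels, where each diamond lies left of every circle of its list except that of Mn1 in ethanol-fed mice.

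Markers of other cell types were read beside the genotype differences, since several of the 5 genes are also made outside hepatocytes. Of 69 marker genes in the table for 11 cell types, edgeR and limma-voom called 0 in either genotype comparison. DESeq2 called 0 in pair-fed mice and 2 in ethanol-fed mice, Krt19 and Cd68, and 5 and 8 had an unadjusted p under 0.05 (7.25% and 11.6%, against 8.48% and 14.7% of all genes). The 10 stellate cell markers summed to 811 to 852 CPM in wild type and 714 to 883 in labelled knockout pair-fed mice, and to 681 to 768 and 695 to 823 in ethanol-fed mice. The 10 sinusoidal endothelial markers summed to 370 to 485 and 385 to 523 CPM in pair-fed mice and to 296 to 549 and 372 to 451 in ethanol-fed mice. Both sums overlapped between labels in each feeding condition.

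Of the sums given next, that of cholangiocyte markers separated by label only in ethanol-fed mice and that of B cell markers only in pair-fed mice. The 7 cholangiocyte markers in the table summed to 55.2 to 75.1 CPM in wild type and 80.2 to 113 in labelled knockout ethanol-fed mice, and to 47.3 to 73.8 and 58.4 to 93 in pair-fed mice. B cell markers (4 of 6 in the table) were low throughout, at 2.16 to 4.79 and 4.94 to 6.41 CPM in pair-fed mice and 1.9 to 2.49 and 0.93 to 2.71 in ethanol-fed mice. Kupffer cell markers (8 of 8) overlapped narrowly, at 263 to 402 and 397 to 524 CPM in pair-fed mice, and stood at 188 to 451 and 181 to 240 in ethanol-fed mice. T and NK cell markers (5 of 7) reached at most 7.83 CPM and neutrophil markers (2 of 6) at most 4.96 CPM in any library.

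For lymphatic endothelium, where Nrp2 is a known marker, 4 of 6 listed genes were in the table (Pdpn, Flt4, Prox1 and Reln), without Ccl21a and Mmrn1. Reln is also on the stellate cell list, so the sum is not specific to lymphatic endothelium and is not read as its amount. The sum was 241 to 261 CPM in wild type and 175 to 246 in labelled knockout pair-fed mice. In ethanol-fed mice it was 250 to 306 and 189 to 302 CPM. For neurons, where Snhg11 is abundant, 3 of 8 markers were in the table, and Tubb3, Snap25, Gap43, Nefl and Elavl4 were not. With most of the list missing, the sum of these 3 is not read as an amount of neurons. The sum was 27.5 to 29.6 CPM in wild type and 41.2 to 55.7 in labelled knockout pair-fed mice, without overlap. It was 12.6 to 18.2 and 14.2 to 27.4 CPM in ethanol-fed mice. The 9 portal fibroblast and mesothelial markers in the table summed to 30.0 to 43.7 and 33.6 to 47.4 CPM in pair-fed mice, and to 44.7 to 47.7 and 45.4 to 65.3 in ethanol-fed mice. The part of these cells in the differences was not tested beyond these values.

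For each of the 5 genes, the other genes whose log2 CPM followed it most closely over the 12 libraries were sought among 11956 genes averaging 1 CPM or more. Because the 12 libraries fall into 4 groups, Pearson's r mostly reflects the group means, and it is given as a measure of likeness only. Ttc39a was the closest match of Snhg11 (r = 0.912) and the third closest of Mn1 (r = 0.899), and its log2 genotype differences were -2.24 under pair-feeding and -1.45 under ethanol. Mn1 was followed more closely by Rwdd1 (r = 0.930) and Atg10, an autophagy enzyme (r = 0.915), and Snhg11 by 4930404H11Rik (r = 0.893) and Pgap2 (r = 0.885). Mme was followed by Ugt1a1, the bilirubin glucuronosyltransferase (r = 0.941), whose reads may be shared within the Ugt1a locus, by the phosphodiesterase Pde3b (r = 0.906) and by the scaffold gene Homer1 (r = 0.889).

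Lepr was followed by the tyrosine kinase Frk (r = 0.921), Ccdc68 (r = 0.902) and Zcwpw1 (r = 0.893). Frk had genotype differences of -0.44 under pair-feeding and -1.26 under ethanol. Its likeness to Lepr follows from how it was chosen. Among the genes that followed Nrp2 were the tubulin cofactor Tbcd (r = 0.903) and Pgap3 (r = 0.902). Their genotype differences were -0.25 and -0.33 for Tbcd and -0.91 and -1.26 for Pgap3. Matches of other genes also had small differences, such as -0.35 and -0.11 for Rwdd1 and -0.41 and -0.64 for Ugt1a1. Among the 5 genes themselves, r over the 12 libraries ran from 0.41 for Mme with Lepr to 0.93 for Mn1 with Snhg11, and the genes share the rule that chose them.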

How the data were processed

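Liver RNA of 12 mice, 3 in each of 4 groups given by the labels, was analysed. STAR 2.5, Subread 1.5.3 with featureCounts, edgeR 3.20.8 and the mm10 build appear in the submitters' processing notes. The sources used here state no annotation release or strand setting. The authors deposited raw counts per gene, log2 CPM, and log2 fold changes with p-values of their own comparisons. The results above use the deposited counts and each gene's exonic length, coordinates, strand and RefSeq identifier, and none of the authors' own comparisons.

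All 13097 genes passed edgeR's filterByExpr. Counts were scaled by TMM and tested with edgeR 4.0.16 (limma 3.58.1, R 4.3.3) by robust quasi-likelihood fits with 1 coefficient per group (8 residual degrees of freedom). P-values were adjusted by Benjamini-Hochberg across the whole table per contrast, and the SE is the log2 difference over the square root of F. The procedure was also run on simulated data, and the outcome of that run is not given here. Log2 CPM for correlations used a prior count of 2. DESeq2 1.42.0, limma-voom and other scalings, filters and a replicate block were alternatives. The depth limits Snhg11 most.

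Replicates differed beyond sampling noise in every group (chi-square at least 12.6 per degree of freedom), and the design text says that samples came from individual mice. The 5 genes and all lists were chosen with earlier results of these data known. Named genes were the 5 genes, Sirt6, the nearest gene on each side, the 3 most correlated genes of each, and, per list, at most 4 genes by smallest p under ethanol. Snhg18, Krt19, Cd68, Cps1 and Tat were named after their values were seen. Some genes that would otherwise be named are not reported here.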

Additional observations from a re-analysis of the deposited data

How the results depend on the processing

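The ethanol effects of Nrp2, Lepr and Mme kept their direction and call under all scalings, filters, other tests and single-library leave-outs run. Snhg11 lost its call with DESeq2 (0.71) and limma-voom (0.70) and ranged from 0.58 to 0.90 without 1 library, and Mn1 from 0.31 to 0.46. Restricted to wild type mice the effects of Nrp2, Mn1, Snhg11 and Lepr were 0.93, 0.03, -0.55 and 1.43, so Snhg11 reversed, and restricted to labelled knockout mice 0.19, 0.73, 1.95 and 0.39. These fits hold fewer samples and carry no test. Genotype calls over all genes numbered 114 under pair-feeding and 148 under ethanol, against 253 and 448 with DESeq2. Without 1 library they ranged from 48 to 151 (48, 57 and 68 without wild type pair-fed mouse 1, 2 or 3, and 64 and 69 when labelled knockout pair-fed mouse 2 or 3 was dropped) and from 69 to 697 (697, 93 and 98 without wild type ethanol-fed mouse 1, 2 or 3, and 288, 69 and 72 without labelled knockout ethanol-fed mouse 1, 2 or 3). The pair-fed differences without 1 library ranged from -4.09 to -3.50 for Snhg11 and from -2.30 to -1.54 for Mme. Of the calls under averaged ethanol, 54.5% were higher with TMM and 70.0% with total counts, which moved the median of all genes from 0.04 to 0.16, yet no gene of the 5 changed sign under either. The replicate numbers shared only a number: deviations of same-numbered mice correlated at -0.17 to 0.16 over 18 pairs, and 2 exceeded 0.1. The replicate block gave 5857 calls against 6157 under averaged ethanol, and 99 and 118 between labels. With it Snhg11 stood at 0.72 and Mn1 at 0.39, and it changed no call of the 5 genes.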

Other observations

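From mouse to mouse within groups, pairs of the 5 genes varied in unlike ways. Over the 12 libraries, deviations from the group mean on the log2 scale correlated at 0.65 for Nrp2 with Mme and at -0.62 for Nrp2 with Snhg11, the extremes of 10 pairs, described without a test. For Mn1 with Snhg11, the pair with the highest correlation of levels, it was -0.05. Wild type pair-fed mouse 3 was the highest of its group for both Nrp2 and Mme (deviations of 0.36 and 0.42). So was labelled knockout pair-fed mouse 3 (0.30 and 0.80), a different animal that shares only the number.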
